A study of Sus scrofa with 21 samples.

Results

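Hearts of naive pigs on postnatal day 7 were set against newborn hearts, collected on day 1 or day 3 and taken as a single group. The comparison used 7 of the 21 libraries in the series, 3 from day 7 and 4 from newborns (2 from day 1 and 2 from day 3), and covered all genes of the deposited count table. Each library is RNA from a separate pig, taken from a small piece of heart tissue at the place where the border of the infarct lies in the study's infarcted pigs. The titles call these animals naive, whereas the treatment text says that controls had the operation without the coronary tie. Which applies was not settled by the labels, and sex and litter are not given in them. All pigs were kept in an incubator and fed on a fixed schedule. The feed was bovine colostrum on days 1 and 2, a mixture with sow's milk on day 3 and cow's milk from day 4, and extra iron was given on day 7, with no word on whether it came before the day 7 hearts were taken. Age and feed therefore cannot be told apart in this comparison.

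In the week after birth the mammalian heart goes from growth by cell division towards growth by enlargement of its muscle cells. Cardiomyocytes replicate DNA in S phase and then either divide or stop after division of the nucleus, so that messenger RNAs of mitosis stand for nuclei in cycle and do not count new cells. Over the same days the heart moves from glucose and lactate towards fatty acids as fuel, swaps fetal for adult isoforms of contractile proteins and meets a higher oxygen tension. The pig is used for such work because its heart muscle can recover from an infarct made on day 1. Expression in a piece of tissue is an average over all its cells, so fewer cells of a type and less RNA per cell cannot be told apart.

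The day 7 libraries held 37002909 to 48321350 counts and the newborn libraries 51694314 to 61725346, so every day 7 library was shallower than every newborn library. Genes of the mitochondrial DNA made up 20.2% to 23.8% of the counts on day 7 and 16.6% to 21.6% in newborns. Across genes, on the log2 scale of CPM (counts per 1000000 counts of the scaled library total), the 3 pairs of day 7 libraries correlated at r = 0.970 to 0.978, the 6 pairs of newborn libraries at 0.961 to 0.974 and the 12 pairs of a day 7 with a newborn library at 0.961 to 0.976. Some libraries lay closest to one of another age. Among the 13 naive libraries, the nearest to day 3 replicate 2 and to day 1 replicate 2 was day 28 replicate 1 (r = 0.986 and 0.973), and the nearest to day 3 replicate 1 was day 28 replicate 3 (r = 0.980). Day 7 replicates 1 and 2 were each nearest to day 7 replicate 3, which itself was as close to day 14 replicate 2 and day 28 replicate 1 as to day 7 replicate 2 (r = 0.978 with each). Heart muscle transcripts were abundant in all 7 libraries. MYH7, the slow ventricular myosin heavy chain, had 39630, 27760 and 32050 CPM on day 7, against 25980 and 31890 CPM on day 1 and 36250 and 37870 CPM on day 3. TNNI3, the adult cardiac troponin I, had 0 counts in each of them, which allows up to 3 counts per library. Whether reads of TNNI3 were assigned to its ID was not tested, so the 0 is not read as its level of expression. MYH6 and IGF2 are not symbols of the table used here.

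No gene passed the test between day 7 and newborn hearts. With edgeR's quasi-likelihood test on all 21 libraries, 0 of 15359 genes (0%) had a Benjamini-Hochberg adjusted p under 0.05, and the smallest adjusted p was 0.240. At an unadjusted p under 0.05 there were 888 genes (5.78% of those tested), 296 higher and 592 lower on day 7. DESeq2 on the same libraries called 12 genes (0.0781%), 3 higher and 9 lower. The voom method of limma with sample weights called 64 (0.417%), 12 higher and 52 lower. The median log2 fold change of all genes was -0.03 and the median standard error of a log2 fold change was 0.29. For single genes the word called is therefore used only with the tool that made the call, and levels are given library by library. As a description of single genes, 610 genes (3.97%) had all 3 day 7 libraries above all 4 newborn libraries and 662 (4.31%) had all 3 below.

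Genes of mitosis lay together on the high side on day 7. Of 54 listed genes of G2 and mitosis, 50 were tested, 49 of these had a positive log2 fold change, and the median was 0.92. In 31 of the 50 (62%) every day 7 library was above every newborn library, beside 3.97% of all genes, and in 0 of the 50 was every day 7 library below. The list of DNA replication and S phase was on the same side, with 40 of 42 genes tested, 34 positive, a median of 0.38 and 15 genes (37.5%) with day 7 above newborn. By edgeR 0 members of either list were called. The genes of a list vary together within a pig, so that the counts describe the same 7 animals many times over. Without day 1 replicate 2, day 3 replicate 1 or day 3 replicate 2, the newborn libraries nearest to a day 28 library, the median of the mitosis list was 0.78, 0.84 and 1.00.

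**Figure D1:**
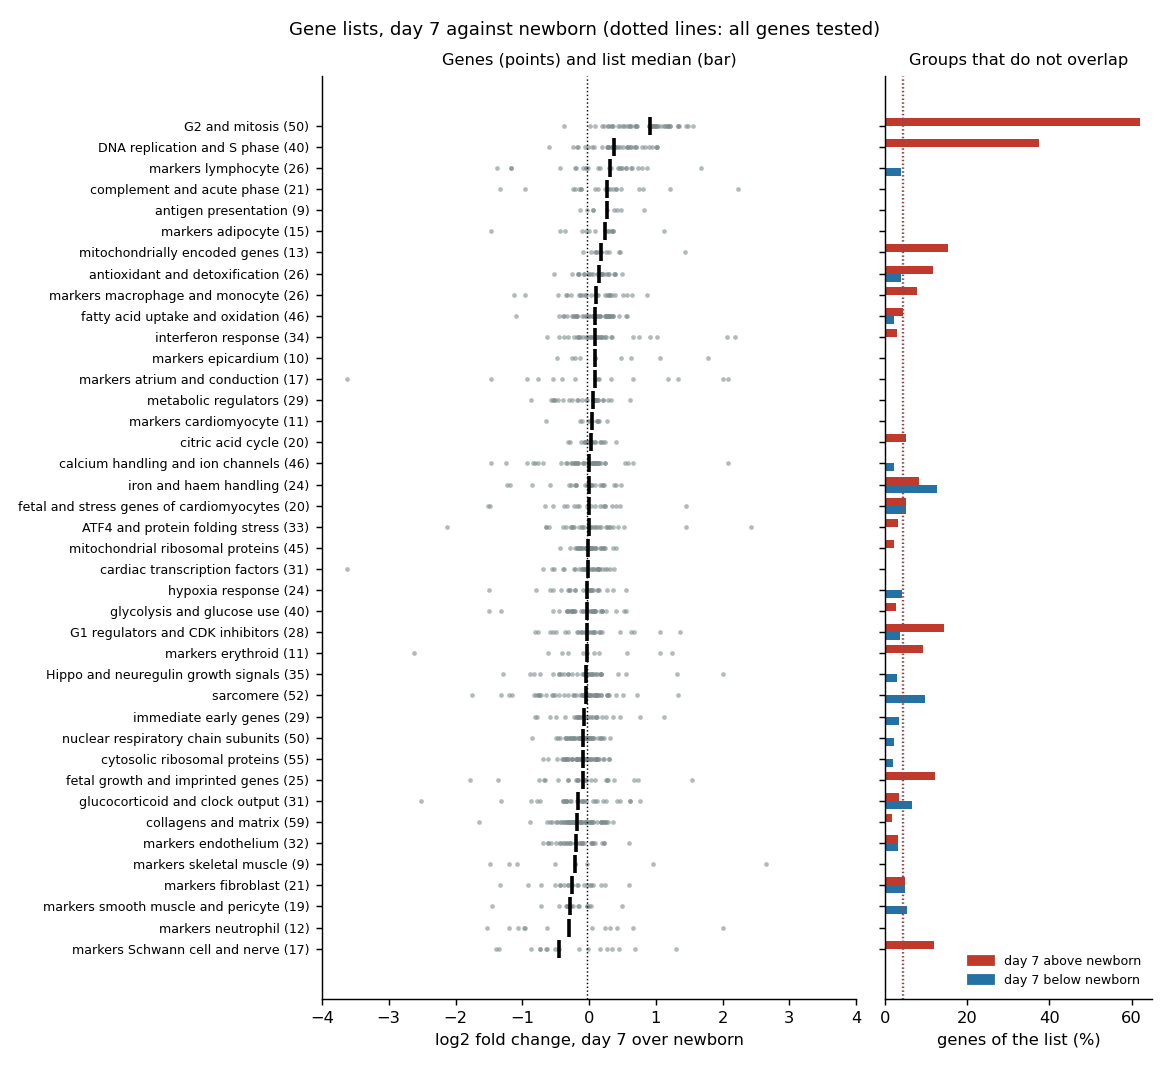
Left, log2 fold changes (day 7 over newborn) of the tested members of 40 gene lists, 1 point per gene, with the list's median as a black bar and the number of genes tested in brackets. Right, the percentage of each list's genes with all 3 day 7 libraries above (red) or below (blue) all 4 newborn libraries. Dotted lines give the values of all 15359 genes. The mitosis list stands at a median of 0.92 with 62% above, and the S phase list at 0.38 with 37.5% above.

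The start regions of these genes are shown because mitotic genes are known to share promoter elements bound by the DREAM complex and the factor NF-Y. The elements are the cell cycle genes homology region (CHR, searched as TTTGAA) and the CCAAT box (searched as CCAAT), both on either strand, with overlaps between them left in. The windows run from 250 bases before to 50 bases after the annotated start of the gene in RefSeq's annotation of Sscrofa11.1, the build that the deposited counts were made on, 300 bases each. Capitals mark matches to either element. CCNB1, CDK1, CENPI and CKAP2 had day 7 above newborn in every library. CENPI and CKAP2 were picked because their windows hold both elements, so that their matches were fixed by the choice. Of the 31 mitosis genes with day 7 above newborn, 12 (38.7%) held both. MKI67 is the proliferation marker of the same list whose groups overlapped.
CCNB1, chr16:47337989-47338288, plus strand: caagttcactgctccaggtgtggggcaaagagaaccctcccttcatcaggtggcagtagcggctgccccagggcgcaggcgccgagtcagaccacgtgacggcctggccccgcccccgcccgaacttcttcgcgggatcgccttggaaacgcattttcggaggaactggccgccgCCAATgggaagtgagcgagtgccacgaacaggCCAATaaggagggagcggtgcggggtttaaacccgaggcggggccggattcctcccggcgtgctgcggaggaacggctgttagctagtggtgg
CDK1, chr14:64233695-64233994, plus strand: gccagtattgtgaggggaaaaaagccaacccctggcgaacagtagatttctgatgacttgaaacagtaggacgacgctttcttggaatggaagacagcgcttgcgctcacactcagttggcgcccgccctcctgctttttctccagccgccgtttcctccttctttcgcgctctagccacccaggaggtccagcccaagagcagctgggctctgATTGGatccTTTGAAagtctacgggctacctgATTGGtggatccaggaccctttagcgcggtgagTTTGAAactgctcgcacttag
CENPI, chrX:82776125-82776424, plus strand: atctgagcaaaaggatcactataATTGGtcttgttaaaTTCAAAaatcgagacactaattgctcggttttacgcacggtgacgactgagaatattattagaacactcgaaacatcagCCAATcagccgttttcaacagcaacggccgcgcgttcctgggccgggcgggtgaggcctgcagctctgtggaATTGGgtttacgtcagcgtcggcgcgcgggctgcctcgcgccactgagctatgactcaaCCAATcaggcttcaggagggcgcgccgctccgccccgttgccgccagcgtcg
CKAP2, chr11:15751467-15751766, plus strand: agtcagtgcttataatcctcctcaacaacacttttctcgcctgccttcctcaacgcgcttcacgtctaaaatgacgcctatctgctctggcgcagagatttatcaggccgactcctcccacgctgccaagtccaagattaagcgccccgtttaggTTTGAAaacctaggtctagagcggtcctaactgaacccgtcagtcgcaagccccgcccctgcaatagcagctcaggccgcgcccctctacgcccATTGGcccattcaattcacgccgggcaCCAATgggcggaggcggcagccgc
MKI67, chr14:137296263-137296562, minus strand: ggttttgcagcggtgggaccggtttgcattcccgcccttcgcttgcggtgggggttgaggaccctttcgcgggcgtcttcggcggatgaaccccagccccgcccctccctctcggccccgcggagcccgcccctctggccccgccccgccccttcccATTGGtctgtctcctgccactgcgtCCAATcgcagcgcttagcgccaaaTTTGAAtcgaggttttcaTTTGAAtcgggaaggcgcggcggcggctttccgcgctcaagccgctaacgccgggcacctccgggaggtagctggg
The CDK1 window held 2 CHR and 2 CCAAT matches, the CCNB1 window 0 and 2, the CENPI window 1 and 4, the CKAP2 window 1 and 2, and the MKI67 window 2 and 2. All 50 tested genes of the mitosis list had a window. Of these, 25 (50%) held a CHR match, 38 (76%) a CCAAT match and 20 (40%) both. Among the 12645 tested genes with a window the shares were 11.9%, 35% and 4.6%. The 31 genes with day 7 above newborn held a CHR match in 51.6% and a CCAAT match in 74.2%, shares close to those of the whole list, so that these letters did not mark out the genes whose groups were apart. In the S phase list, 9 of 39 windows (23.1%) held TTTGGCGC or TTTCCCGC on either strand, letters bound by E2F factors, beside 2.97% of tested genes. A match is a description of the letters and does not show a site in use.

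CCNB1 encodes cyclin B1, and CDK1 the kinase that it activates to start mitosis. CCNB1 had 36.0, 66.9 and 43.5 CPM on day 7, against 17.3 and 11.0 CPM on day 1 and 11.3 and 27 CPM on day 3. CDK1 had 27.9, 48.5 and 28.0 CPM on day 7, against 12.3 and 8.92 CPM on day 1 and 8.05 and 20.7 CPM on day 3. In both genes day 7 replicate 2 was the highest library and day 3 replicate 2 the highest newborn, with no overlap of the groups. The log2 fold change was 1.55 ± 0.79 (SE) for CCNB1 (95% interval -0.12 to 3.23, edgeR adjusted p = 0.868) and 1.48 ± 0.80 for CDK1 (adjusted p = 0.895).

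Single genes of the spindle checkpoint and of cell division, chosen after their values were seen and none of them called by edgeR, are given as examples. All but MAD2L1 are members of the mitosis list. MAD2L1, which holds back the separation of chromosomes until all are attached, had 23.5, 41.2 and 26.0 CPM on day 7, against 12.5 and 11.4 CPM on day 1 and 9.55 and 16.4 CPM on day 3. BUB1 and TTK, kinases of the same checkpoint, averaged 26.4 ± 7.5 and 22.0 ± 5.0 CPM on day 7 (SD, n = 3), against 11.4 ± 4.2 and 10.7 ± 2.8 CPM in newborns (n = 4). All 3 genes were higher in every day 7 library, and their log2 fold changes were 1.28, 1.21 and 1.03. NUSAP1, a microtubule protein of the spindle, had 56.0, 89.2 and 56.9 CPM on day 7, against 37.1 and 30.8 CPM on day 1 and 35.4 and 41.9 CPM on day 3. ANLN encodes anillin, a scaffold of the ring that pinches a dividing cell, and had 73.8, 115.6 and 71.3 CPM on day 7, against 39.4 and 30.8 CPM on day 1 and 32.5 and 49.9 CPM on day 3. The groups of both were apart, by a log2 fold change of 0.89 ± 0.40 for NUSAP1 and 1.19 ± 0.56 for ANLN, with edgeR adjusted p = 0.834 and 0.856. PLK1, a kinase that drives mitosis, averaged 28.7 ± 5.2 CPM on day 7 and 14.2 ± 5.2 CPM in newborns.

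Other members of the mitosis list stood closer, and in 19 of the 50 the groups overlapped. TOP2A, the topoisomerase that untangles chromosomes, had 83.2, 145.6 and 93.8 CPM on day 7, against 82.5 and 50.9 CPM on day 1 and 60.9 and 70.9 CPM on day 3, so that its lowest day 7 library was level with day 1 replicate 1. MKI67, which coats mitotic chromosomes and is the usual proliferation marker, had 74.4, 50.5 and 173.4 CPM on day 7, against 139.7 and 135.1 CPM on day 1 and 36.6 and 62.2 CPM on day 3. Its groups overlapped (log2 fold change 0.09, 95% interval -1.53 to 1.71, and -0.57 without day 7 replicate 3 or 0.41 without day 7 replicate 2), and its library order was not that of CCNB1 or CDK1. KIF15, a spindle motor, was the member with a negative value (-0.38). FOXM1 and MYBL2, transcription factors that drive mitotic genes, had log2 fold changes of 0.50 and 0.52 with overlapping groups. CCNA2, AURKA, PTTG1 and KNL1 are not symbols of the table used here.

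**Figure D2:**
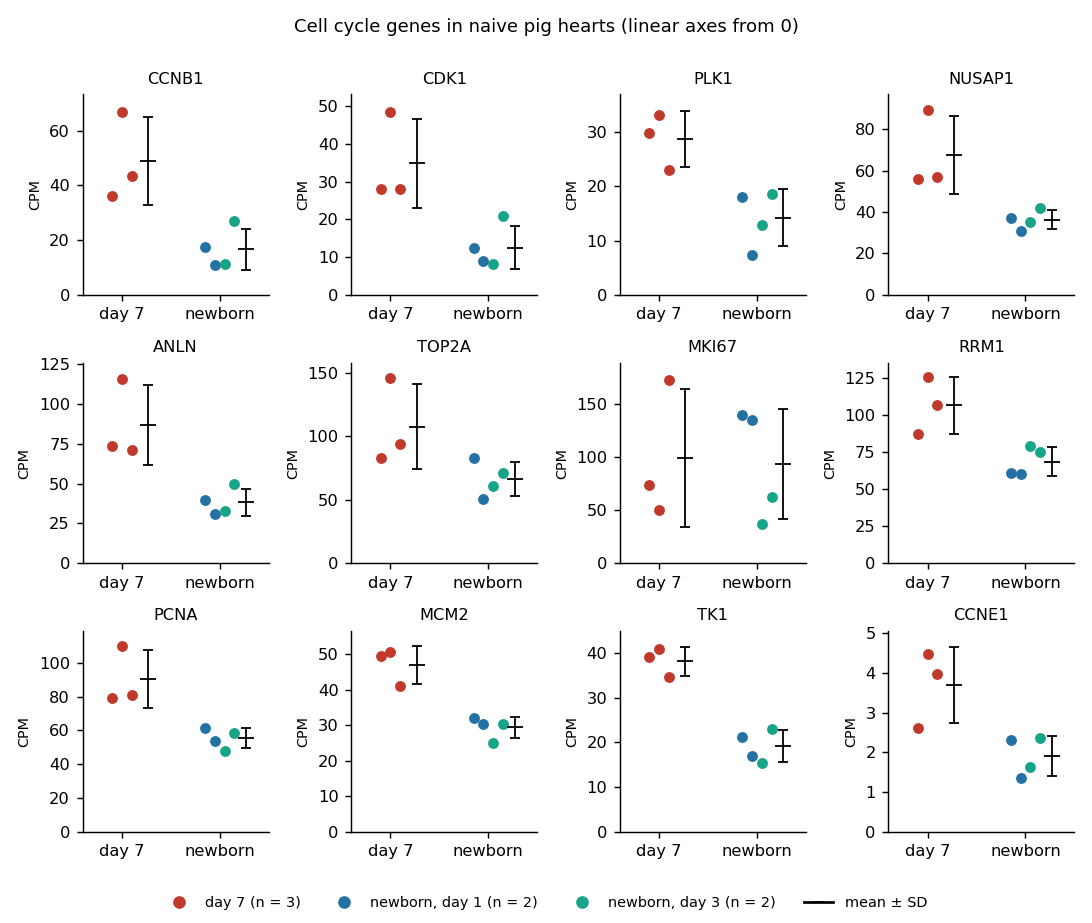
CPM of 12 cell cycle genes in each library, with day 7 (3 red points) left of newborn (2 blue points for day 1, 2 green points for day 3), and the mean ± SD of each group in black. In 11 of the 12 panels every day 7 point lies above every newborn point, and in the MKI67 panel the groups overlap.

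In S phase, RRM1, the large subunit of the enzyme that makes deoxynucleotides, had 87.4, 125.4 and 106.4 CPM on day 7, against 60.5 and 59.9 CPM on day 1 and 79.0 and 74.8 CPM on day 3. PCNA, the sliding clamp of DNA polymerase, had 79.5, 110.0 and 81.3 CPM on day 7, against 61.2 and 53.8 CPM on day 1 and 47.9 and 58.6 CPM on day 3. The groups were apart in both genes, with log2 fold changes of 0.63 ± 0.20 (edgeR adjusted p = 0.643) and 0.70 ± 0.35 (adjusted p = 0.864). MCM2, part of the helicase that opens DNA, averaged 47.1 ± 5.4 CPM on day 7 and 29.4 ± 3.1 CPM in newborns. TK1, a thymidine kinase, averaged 38.2 ± 3.2 and 19.1 ± 3.5 CPM in the same groups. CCNE1 and CCNE2, the E cyclins that open S phase, averaged 3.69 ± 0.96 and 9.24 ± 0.94 CPM on day 7, against 1.92 ± 0.50 and 4.97 ± 1.58 CPM in newborns. Of the 40 tested genes 6 had a negative value, POLA1, CDC45, CHAF1B, BRCA1, CLSPN and HELLS, the lowest being CHAF1B at -0.59.

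Genes that decide on entry into the cycle were split. Of 28 tested G1 regulators and CDK inhibitors, 13 had a positive log2 fold change, 4 had day 7 above newborn (14.3%, beside 3.97% of all genes) and 1 below (3.57%, beside 4.31%), with a median of -0.03. CDK2, the partner of the E cyclins, had 34.6, 40.7 and 34.4 CPM on day 7, against 26.4 and 17.5 CPM on day 1 and 26.2 and 24.6 CPM on day 3. CDKN2D, which encodes an inhibitor of CDK4 and CDK6, was also higher in every day 7 library, at 20.7, 22.2 and 17.4 CPM, against 9.44 and 6.61 CPM on day 1 and 6.60 and 15.8 CPM on day 3. The others above newborn were CDKN2C, a CDK inhibitor of the same family, and MYCL, and the gene below was MYC, a growth-promoting transcription factor. The D cyclins were uncalled. CCND1 had a log2 fold change of -0.49 and CCND2 of -0.36, and the newborn range of CCND2 (98.5 to 449.1 CPM) enclosed the day 7 range (139.5 to 184.9 CPM). The log2 fold change of CCND2 was 0.34 without day 1 replicate 2 and 0.18 against day 3 alone, so that its sign rested on day 1 replicate 2.

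The higher levels of cycle genes on day 7 were seen against each newborn day. In 33 of the 50 mitosis genes (66%) the 3 day 7 libraries were above both day 1 libraries, beside 11.8% of all genes, and in 41 (82%) they were above both day 3 libraries, beside 11.4%. The mean log2 CPM of the mitosis list was 4.43, 5.0 and 4.47 on day 7, against 4.14 and 3.41 on day 1 and 3.58 and 4.12 on day 3. The same mean was 4.46, 3.63 and 2.26 on day 14 and 3.55, 3.59 and 2.78 on day 28, so that day 14 replicate 1 reached the day 7 level and the other later libraries were below it. In 19 of the 50 mitosis genes (38%) and 14 of the 40 S phase genes (35%) the 3 day 7 libraries were above all 10 other naive libraries, beside 1.52% of all genes, while 1.84% of all genes had day 7 below all of them. Because the same 3 day 7 libraries enter each of these counts, they are not separate evidence. The day 7 libraries were shallower than the 4 newborn libraries as well, and the part of depth in the counts was not tested.

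**Figure D3:**
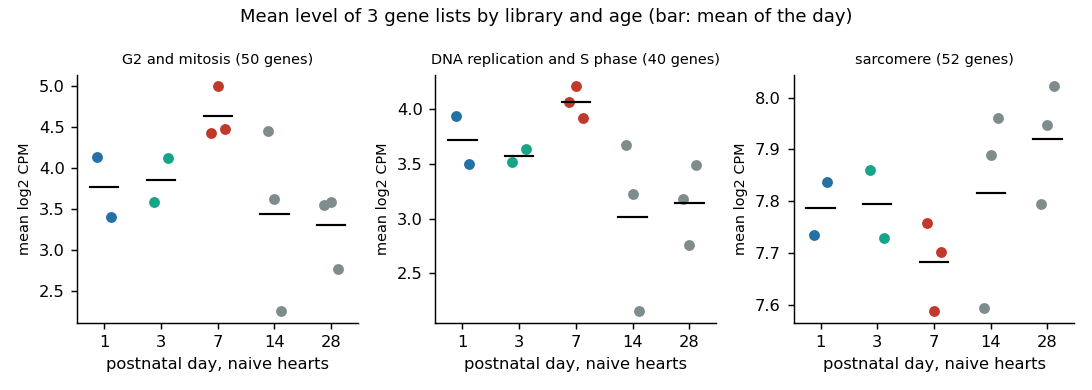
Mean log2 CPM of the genes of 3 lists in each naive library by postnatal day, with newborn days in blue and green, day 7 in red, later days in grey and the mean of each day as a bar. The mitosis list lies at 4.43 to 5.0 on day 7 and at 3.41 to 4.14 in the 4 newborn libraries, and the sarcomere list at 7.59 to 7.76 and 7.73 to 7.86.

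Summed markers of most other cell types overlapped between the ages, with the epicardium as an exception. The 26 tested markers of macrophages and monocytes summed to 421.8 to 445.5 CPM on day 7 and 273.9 to 481.0 CPM in newborns. In 2 of them, CD14 and LAPTM5 (7.69%, beside 3.97% of all genes), day 7 was above newborn. The 32 endothelial markers summed to 2042 to 2670 CPM on day 7 and 2132 to 4008 CPM in newborns. PDPN was above (3.125%, beside 3.97% of all genes) and FLT1 below (3.125%, beside 4.31%), shares near those of all genes. The 21 fibroblast markers summed to 5688 to 7000 CPM on day 7 and 4676 to 12990 CPM in newborns, and the 11 erythroid markers to 412.8 to 756.8 and 355.4 to 587.7 CPM. The sums of these 4 lists overlapped between the groups. The 10 tested epicardial markers summed to 194.5, 196.6 and 190.7 CPM on day 7, against 159.9 and 170.2 CPM on day 1 and 151.7 and 149.5 CPM on day 3, so that the sum was higher in every day 7 library. In 0 of its 10 genes were the groups apart, and its mean log2 CPM overlapped, at 1.52 to 2.41 on day 7 and 1.32 to 2.1 in newborns. The part of epicardial cells in the counts of mitosis genes was not tested. The 11 cardiomyocyte markers summed to 68680 to 80170 CPM on day 7 and 65680 to 82300 CPM in newborns. Which cells carried the mitotic transcripts was not tested.

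As a list, contractile genes lay near all genes. Of 52 tested sarcomere genes 22 had a positive log2 fold change, the median was -0.05, and 0 had day 7 above newborn while 5 (9.62%) had day 7 below, beside 4.31% of all genes. These 5 were MYH7B, TNNC1, TCAP, NEBL and MYBPH, the last at under 0.1 CPM in every library. TCAP encodes telethonin, which caps titin at the Z disc, and had 810.7, 720.2 and 877.9 CPM on day 7, against 1587 and 1406 CPM on day 1 and 1403 and 1178 CPM on day 3. NEBL, which encodes nebulette, a thin filament protein at the cardiac Z disc, had 1329, 1458 and 1356 CPM on day 7, against 1569 and 2010 CPM on day 1 and 2391 and 2159 CPM on day 3. Neither gene's groups overlapped, with log2 fold changes of -0.80 ± 0.33 (edgeR adjusted p = 0.831) and -0.56 ± 0.19 (adjusted p = 0.716). TNNT2, cardiac troponin T, had 4911, 3461 and 4620 CPM on day 7, against 8996 and 4885 CPM on day 1 and 5865 and 7211 CPM on day 3, so that the groups met at day 1 replicate 2.

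Isoform markers of fetal muscle overlapped between the ages, as did MYH7, which is not taken as a fetal marker here. TNNI1, the slow troponin I of the fetal heart, had 650.4, 775.4 and 692.3 CPM on day 7, against 1009 and 570.0 CPM on day 1 and 1031 and 395.1 CPM on day 3, and its interval of log2 fold change ran from -1.75 to 1.57. ACTA1, the skeletal actin that the young ventricle also makes, had a log2 fold change of -0.23 and MYH7 of 0.01. The interval of MYH7, -0.59 to 0.61, is the narrowest of these 3. NPPA, the atrial natriuretic peptide and a marker of fetal or strained ventricle, ranged from 24.3 to 313.5 CPM on day 7 and from 11.8 to 397.8 CPM in newborns. A difference in NPPA was not detectable with these libraries, since its values spread over 10-fold within day 7 and within the pooled newborn group. The log2 fold change of NPPA was -0.54, with 0.19 without day 3 replicate 1 and -2.62 without day 7 replicate 2.

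**Figure D4:**
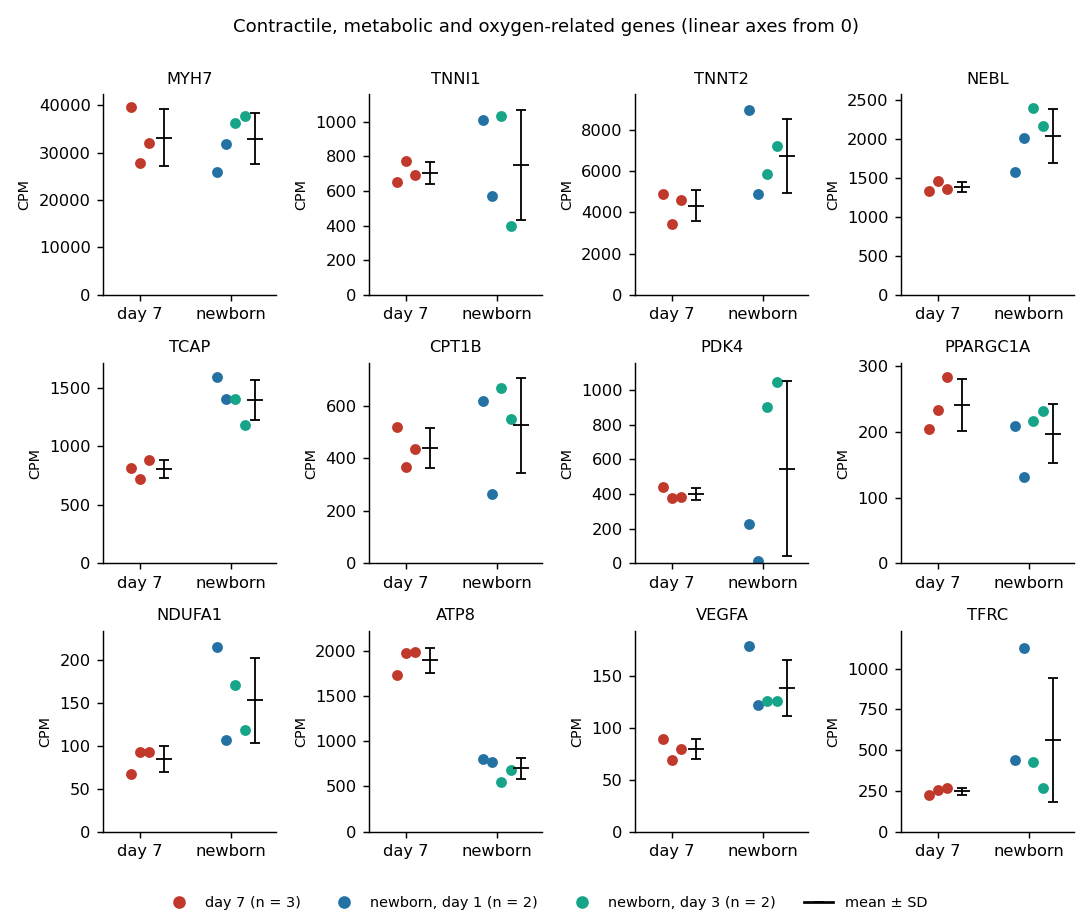
CPM of 12 contractile, metabolic and oxygen-related genes in each library, with day 7 (3 red points) left of newborn (2 blue points for day 1, 2 green points for day 3), and the mean ± SD of each group in black. TCAP, NEBL, NDUFA1, VEGFA and TFRC lie lower in every day 7 library, ATP8 lies higher in every one, and the other 6 genes overlap.

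Fuel genes were uncalled by edgeR. Of 46 tested genes of fatty acid uptake and oxidation 30 had a positive log2 fold change, against 6970 of 15359 genes in all, with a median of 0.09. In 2 (4.35%, beside 3.97% of all genes) day 7 was above newborn, and in 1, FITM1, a gene of lipid droplets, it was below (2.17%, beside 4.31%). The 2 above were HADH and ACAT1, enzymes of fatty acid and ketone breakdown, with log2 fold changes of 0.26 and 0.32. The 46 genes summed to 11880, 10960 and 11740 CPM on day 7, against 9995 and 8345 CPM on day 1 and 12750 and 12730 CPM on day 3. Every day 7 sum therefore lay above both day 1 sums and below both day 3 sums, which the pooled median does not show. CPT1B, which carries fatty acids to the muscle mitochondrion, had 517.2, 364.4 and 436.2 CPM on day 7, against 616.1 and 263.6 CPM on day 1 and 666.8 and 549.8 CPM on day 3. PDK4, the kinase that shuts pyruvate out of the citric acid cycle when fat is burnt, had 443.2, 374.9 and 382.5 CPM on day 7, against 227.2 and 12.7 CPM on day 1 and 901.8 and 1046 CPM on day 3. The day 7 values of PDK4 lay between those of day 1 and those of day 3, and the pooled newborn mean of 546.9 ± 504.1 CPM (SD, n = 4) covers both. PPARGC1A, a coactivator that drives mitochondrial genes, had a log2 fold change of 0.28 with an interval of -0.27 to 0.84. Glycolysis and glucose use had a median of -0.03 over 40 genes. In 1 of them, GYG1 (2.5%, beside 3.97% of all genes), day 7 was above newborn.

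Respiratory chain genes of both genomes overlapped between the ages as lists. Of 50 tested nuclear subunits 12 had a positive log2 fold change, with a median of -0.09, and of 13 mitochondrially encoded genes 12 did, with a median of 0.17, against 6970 of 15359 genes in all. The mean log2 CPM of the nuclear list was 8.10 to 8.19 on day 7 and 7.93 to 8.57 in newborns, and that of the mitochondrial list 13.1 to 13.4 and 12.8 to 13.2. NDUFA1, a nuclear subunit of complex I, had 66.5, 92.7 and 92.8 CPM on day 7, against 214.4 and 106.5 CPM on day 1 and 170.7 and 118.1 CPM on day 3. It was the only nuclear subunit with its groups apart (2%, beside 4.31% of all genes with day 7 below). ATP8, a subunit of ATP synthase encoded in mitochondrial DNA, had 1739, 1975 and 1983 CPM on day 7, against 807.0 and 775.9 CPM on day 1 and 548.0 and 684.3 CPM on day 3. COX1, a catalytic subunit of complex IV, was also higher in every day 7 library, at 70590, 74420 and 86960 CPM, against 60580 and 64210 CPM on day 1 and 44940 and 55440 CPM on day 3. ATP8 and COX1 were the 2 of 13 mitochondrially encoded genes with day 7 above newborn (15.4%, beside 3.97% of all genes). The log2 fold change of ATP8 was 1.43 ± 0.69 (edgeR adjusted p = 0.864). Its reading frame overlaps that of ATP6, which had 0.29, and how reads of the overlap were counted was not stated. Among the day 14 and day 28 libraries ATP8 ranged from 553.6 to 4694 CPM.

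Among oxygen and iron genes, VEGFA, FLT1, TFRC and FTL were lower in every day 7 library, and none was called by edgeR. VEGFA, the growth factor for vessels that low oxygen induces, had 89.2, 69.3 and 79.8 CPM on day 7, against 178.1 and 122.0 CPM on day 1 and 125.3 and 126.1 CPM on day 3. FLT1, one of its receptors, had 67.1, 72.8 and 72.7 CPM on day 7, against 132.7 and 101.5 CPM on day 1 and 92.6 and 94.0 CPM on day 3. In both genes every day 7 library was lower, with log2 fold changes of -0.80 ± 0.28 for VEGFA (edgeR adjusted p = 0.729) and -0.57 for FLT1. The hypoxia list as a whole did not lean, with 11 of 24 genes positive, a median of -0.03 and VEGFA as its 1 gene below newborn (4.17%), a share near the 4.31% of all genes. FLT1 belongs to the endothelial list. TFRC, the receptor that brings iron into cells, had 225.1, 254.4 and 266.8 CPM on day 7, against 439.7 and 1124 CPM on day 1 and 425.2 and 269.3 CPM on day 3. Its day 7 values lay in a narrow band just under the lowest newborn library (log2 fold change -1.18 ± 0.72, adjusted p = 0.927). FTL, the light chain of the iron store ferritin, was lower in every day 7 library (log2 fold change -0.58), while FECH, which puts iron into haem, was higher in every one (0.40). Of the 24 iron and haem genes 12 were positive, 2 had day 7 above (8.33%, beside 3.97% of all genes) and 3 below (12.5%, beside 4.31%).

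Growth, matrix and hormone genes were uncalled by edgeR. Over all genes 6970 of 15359 were positive. Of 25 fetal growth and imprinted genes 9 were positive with a median of -0.09, and 3 (12%, beside 3.97% of all genes) had day 7 above newborn, MEST, PLAGL1 and SGCE, all imprinted. Of 31 glucocorticoid and clock genes 10 were positive with a median of -0.17, and 2 (6.45%, beside 4.31% of all genes) had day 7 below newborn (CRY1 and RORA). IGFBP3, a carrier of insulin-like growth factors, had 4.49, 2.79 and 1.60 CPM on day 7, against 11.0 and 7.62 CPM on day 1 and 7.66 and 4.09 CPM on day 3, with day 7 replicate 1 above day 3 replicate 2. IGF2BP3, a fetal RNA-binding protein, had a log2 fold change of -0.05 with an interval of -0.62 to 0.53. The 59 collagen and matrix genes had a median of -0.18 with 18 positive. In 1 of them, FBLN5 (1.695%, beside 3.97% of all genes), day 7 was above newborn. COL1A1 had 2026, 1196 and 1597 CPM on day 7, against 2048 and 3046 CPM on day 1 and 1520 and 1380 CPM on day 3, and ELN had a log2 fold change of -0.56. Day 1 replicate 2 was the highest of the 7 libraries for both. TEAD1 and ERBB4, a transcription factor of the Hippo pathway and a neuregulin receptor, had log2 fold changes of -0.42 and -0.83 with overlapping groups. The log2 fold change of ERBB4 was 0.44 without day 3 replicate 1 and 1.16 against day 1 alone, so that its sign rested on day 3 replicate 1. FKBP5, a target of the glucocorticoid receptor, had 0.06. For the other fixed genes the intervals were also wide, CPT1A at -0.10 (-0.84 to 0.64), ESRRG at -0.17 (-0.93 to 0.59) and HBB at 0.57 (-0.79 to 1.93). LIN28B had 0 counts in the 3 day 7 libraries and 0 to 8 counts in newborns.

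Interferon genes varied by pig. The mean log2 CPM of 34 interferon response genes was 4.06, 3.69 and 5.53 on day 7, against 4.54 and 5.33 on day 1 and 3.23 and 3.94 on day 3, so that day 7 replicate 3 and day 1 replicate 2 were high. IFI6, an interferon-induced mitochondrial protein, was the 1 member with its groups apart (2.94%, beside 3.97% of all genes with day 7 above). It had 401.4, 432.3 and 1070 CPM on day 7, against 176.3 and 247.1 CPM on day 1 and 32.1 and 152.6 CPM on day 3. ISG15, a ubiquitin-like interferon target, had 17.5, 10.2 and 116.9 CPM on day 7, against 28.0 and 59.5 CPM on day 1 and 5.98 and 9.34 CPM on day 3. Markers of smooth muscle and pericytes were positive in 2 of 19 genes (median -0.28), with MYH11 at 28.4, 25.3 and 35.6 CPM on day 7, against 61.0 and 62.5 CPM on day 1 and 38.6 and 34.2 CPM on day 3, where day 3 replicate 2 fell within the day 7 range. TAGLN was the 1 marker with every day 7 library below newborn (5.26%, beside 4.31% of all genes). The 19 markers summed to 6703 to 7913 CPM on day 7 and 6296 to 9985 CPM in newborns, so that the sums overlapped.

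Genes called by other tools were few. DESeq2 and voom, each on 21 libraries, shared 10 called genes, 9 of them with a symbol. The 3 that lay higher on day 7 were PSME1, OCIAD2 and SLC41A3. PSME1, a subunit of the proteasome activator PA28, had 6.0, 5.2 and 6.91 CPM on day 7, against 3.40 and 3.02 CPM on day 1 and 2.95 and 2.40 CPM on day 3 (log2 fold change 1.04 ± 0.22, DESeq2 adjusted p = 0.00246, edgeR adjusted p = 0.486). Among the 6 with a symbol that lay lower were LAD1, which encodes ladinin, and SNRNP70, a protein of the U1 splicing particle. LAD1 had 238.6, 171.6 and 224.2 CPM on day 7, against 627.3 and 302.2 CPM on day 1 and 420.1 and 530.1 CPM on day 3 (log2 fold change -1.15 ± 0.25, DESeq2 adjusted p = 0.00926, edgeR adjusted p = 0.486). SNRNP70 had 57.6, 42.7 and 48.0 CPM on day 7, against 151.1 and 62.6 CPM on day 1 and 128.0 and 148.1 CPM on day 3 (log2 fold change -1.31, DESeq2 adjusted p = 0.0172). The groups were apart in all 3 genes. RGL2, MAP3K2, PHPT1 and PPFIA3 were also lower, all under 10 CPM. The gene without a symbol was lower too, at 8.87, 9.67 and 13.7 CPM on day 7. Its newborn levels were 57.0 and 34.5 CPM on day 1 and 27.3 and 56.0 CPM on day 3. Its log2 fold change was -2.02 (DESeq2 adjusted p = 2.19e-05), and its edgeR adjusted p of 0.240 was the smallest of all genes. DESeq2 on the 7 libraries alone, run after the data had been seen, called 74 genes higher (0.532%) and 43 lower (0.309%) on day 7, with 18 of the 50 mitosis genes and 5 of the 40 S phase genes among those higher, CCNB1 (adjusted p = 0.00300), CDK1 (0.00645) and TK1 (6.83e-04) included. Outside those lists, this DESeq2 run called ATP8 higher (adjusted p = 3.23e-10). It called TCAP (0.00284), VEGFA (0.0209), PNISR (0.0179) and LENG8 (0.0223) lower, among others. The edgeR test on the same 7 libraries called 0 of 13922, with 1078 at an unadjusted p under 0.05. Voom on the 21 libraries called NEBL (adjusted p = 0.0447), PNISR and LENG8 (0.0416 each) lower, among others.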

How the data were processed

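The authors deposited raw read counts per gene, 25880 genes by 21 libraries. Per the submitters' processing notes, the tools were Trim Galore, STAR 2.5.2, HTSeq 0.6.1 and DESeq2, with the Sscrofa11.1 genome. No source used here gives the strand setting or annotation release, so reads of overlapping genes cannot be assigned. All columns were mapped by pig number in the titles. Where a symbol had several IDs the ID with the highest total was used. Genes were filtered with filterByExpr (15359 kept) and scaled by TMM, and 7 group means were fitted to 21 libraries (days 1 and 3 as a single group, 14 residual degrees of freedom) with edgeR 4.0.16, R 4.3.3. DESeq2 1.42.0 and limma 3.58.1 were alternatives, and figures used matplotlib 3.10.9. SE derives from the F statistic. CPM uses TMM-scaled totals, and list levels use log2 CPM with a prior count of 2. The test was tried on simulated data. The comparison and the gene lists were chosen with earlier results of these data known. Since 0 genes were called, the rule for named genes left the 24 fixed genes, 1 of which is not reported here, and all other genes named were chosen after their values were seen. Labels do not say whether pigs of an age shared a litter, so p-values measure the spread between these libraries. Intervals cover 95%.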

Additional observations from a re-analysis of the deposited data

How the results depend on the processing

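By edgeR the count of called genes was 0 under RLE and upper quartile scaling, without the low-count filter, with at least 1 CPM in 3 of the 7 libraries, in the 7 and in the 13 naive libraries alone, with separate means for days 1 and 3, against either day alone, for a fold of at least 2, and without 4 libraries of other groups that stand apart in the counts of a few genes (added after seeing the data). Leaving out any 1 of the 7 libraries also gave 0 calls. DESeq2 called 12 genes, 3 higher and 9 lower, and voom 64, 12 higher and 52 lower. On the 7 libraries alone, both added after seeing the data, DESeq2 called 117, 74 higher and 43 lower, and voom 1, which was higher, ATP8. The cause was not tested. The median log2 fold change of the mitosis list ran from 0.64 to 1.02 and that of the S phase list from 0.29 to 0.53 over all alternatives. No paired analysis was possible because the labels give no replicate numbers that the groups share. With 3 against 4 libraries and a median SE of 0.29, small changes were not detectable.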

Other observations

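Genes of splicing and nuclear RNA processing stood out after the values were seen, and the list of 60 such genes was written afterwards, so its counts are a description only. Of the 60 tested, 6 had a positive log2 fold change, the median was -0.27, 15 (25%, beside 4.31% of all genes) had every day 7 library below every newborn library and 1, PRPF8 (1.67%, beside 3.97%), had every one above. In 12 of them (20%, beside 1.84% of all genes) the day 7 libraries were below all 10 other naive libraries. The mean log2 CPM of the list was 6.019, 6.088 and 6.08 on day 7, against 6.515 and 6.066 on day 1 and 6.443 and 6.415 on day 3. As a list the groups therefore overlapped, with day 1 replicate 2 inside the day 7 range. PNISR, a serine and arginine rich splicing protein, had 50.2, 50.5 and 50.8 CPM on day 7, against 118.0 and 61.2 CPM on day 1 and 96.7 and 112.2 CPM on day 3. SRSF11, a splicing factor of the SR family, had 25, 30.5 and 28.9 CPM on day 7, against 49 and 31.6 CPM on day 1 and 43.9 and 43.1 CPM on day 3. PABPN1, the nuclear poly(A) binding protein, had 60.3, 57.7 and 64.1 CPM on day 7, against 116.9 and 67.9 CPM on day 1 and 100.5 and 99.0 CPM on day 3. In all 3 genes day 1 replicate 2 was the newborn library nearest to day 7. LENG8 had 90.1, 39.4 and 63.4 CPM on day 7, against 180.2 and 88.8 CPM on day 1 and 148.8 and 177.5 CPM on day 3, with day 7 replicate 1 just above day 1 replicate 2. Day 7 libraries were also the shallowest of the 7, and the part of depth was not tested.

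Of 26 tested antioxidant and detoxification genes, 17 had a positive log2 fold change, 3 (11.5%, beside 3.97% of all genes) had day 7 above newborn and 1 (3.85%, beside 4.31%) below. Those above were PRDX3, GSR and SELENOP, with log2 fold changes of 0.38, 0.50 and 0.39. SOD2, the manganese superoxide dismutase of mitochondria, had 605.2, 446.9 and 508.5 CPM on day 7, against 698.5 and 739.7 CPM on day 1 and 793.0 and 764.1 CPM on day 3. PRDX3, a mitochondrial peroxidase, had 361.2, 424.4 and 404.3 CPM on day 7, against 295.2 and 290.7 CPM on day 1 and 293.1 and 342.5 CPM on day 3. Both genes had groups that did not overlap, in opposite directions, and edgeR called neither. CLU, which encodes the secreted chaperone clusterin, had 101.4, 115.3 and 66.4 CPM on day 7, against 247.9 and 128.8 CPM on day 1 and 117.7 and 559.7 CPM on day 3.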
